A study of Arabidopsis thaliana with 6 samples.

Results

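The MADS-box genes of the FLC clade and SVP, 7 repressors of flowering in Arabidopsis thaliana, were compared between a prmt5 mutant and the wild type. They were taken by locus identifier and comprise FLC (AT5G10140), FLM (AT1G77080, also called MAF1), MAF2 (AT5G65050), MAF3 (AT5G65060), MAF4 (AT5G65070), MAF5 (AT5G65080) and SVP (AT2G22540). These are 7 of the 33602 genes in the deposited gene table, and all 7 passed the expression filter that left 22509 genes for testing. The measurement was RNA-seq of whole plants, with 3 libraries of prmt5 mutant plants and 3 libraries of wild type plants (WT). Both genotypes were in the Col-0 accession, and PRMT5, a protein arginine methyltransferase whose known substrates include core spliceosome proteins, is the mutated gene. The labels do not name the allele that the mutant carries. Seeds of both groups were kept for 4 days in darkness at 4 °C, and the plants were harvested after 9 days at 22 °C in uninterrupted white light. The question put to these genes was whether the level and the splicing of each differed between the genotypes.

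MADS-box proteins of this group bind DNA as pairs and larger assemblies. FLC and SVP form a repressive pair on the genes of the floral integrators FT and SOC1, and FLM and MAF2 to MAF5 are close relatives of FLC that delay flowering to different degrees. FLC is raised by the FRIGIDA complex and by activating chromatin factors, and it is lowered by the autonomous pathway and by Polycomb silencing after cold. Col carries a non-functional FRI allele, and FLC is low in it as long as the autonomous pathway is intact. FLM makes a pair of well-known splice forms by joining exon 1 either to exon 2 (FLM-β) or to exon 3 (FLM-δ), and the balance of these forms is known to move with ambient temperature. FLM-β acts with SVP as a repressor. MAF2 is known to keep 1 of its introns, the third, in part of its transcripts, also depending on temperature.

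The alternative exons of FLM are printed here because the largest splicing differences of the 7 genes lay at them. Both lie on the plus strand of chromosome 1 in RefSeq's TAIR10.1 sequence, exon 2 at chr1:28958334-28958391 (58 bases) and exon 3 at chr1:28958456-28958501 (46 bases). Capitals mark the exon, and the lower-case letters are the 20 intron bases on either side.
FLM exon 2: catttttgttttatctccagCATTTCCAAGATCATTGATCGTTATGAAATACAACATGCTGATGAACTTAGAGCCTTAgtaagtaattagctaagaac
FLM exon 3: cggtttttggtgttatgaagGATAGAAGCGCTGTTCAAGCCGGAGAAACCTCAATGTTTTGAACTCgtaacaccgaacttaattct

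The donor sites of the first introns are printed because intron 1 carried the largest rise of intron reads in FLM, MAF2 and MAF3. Lower case marks the last 10 exon bases and capitals the first 20 intron bases, read 5′ to 3′ on the strand of each gene. They lie at chr5:3179135-3179164 on the minus strand for FLC, and on the plus strand at chr1:28955854-28955883 for FLM, chr5:25982590-25982619 for MAF2, chr5:25987702-25987731 for MAF3, chr5:25992485-25992514 for MAF4, chr5:25997846-25997875 for MAF5 and chr2:9580589-9580618 for SVP.
FLC: ccggcgataaGTACGCCTTTTCCTTACCTG
FLM: ccggtgacgaGTAAGAAGATACTTTCCTTT
MAF2: ccggtgacaaGTAAGCTGCTACTTTCCTCT
MAF3: ccggtgacaaGTAAGCTTCTTTCCTCTTCT
MAF4: caggtgatagGTAACACCATTACCTATTTT
MAF5: ccggcgacagGTCTCACTCTTTTTAACTCC
SVP: gtagctccagGTCTTTCTTTCTCTCTCTAA

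The libraries held between 41465842 and 67300273 gene counts in prmt5 and between 38564256 and 75461631 in WT. The annotated PRMT5 junction with the lowest ratio of prmt5 to WT counts, between positions 15132629 and 15132725 of chromosome 4, had 5, 3 and 17 counts in prmt5, against 104, 83 and 116 in WT. A junction that the table does not annotate, from 15132629 to 15132732, had 11, 10 and 27 counts in prmt5 and 0 in each WT library, while the summed PRMT5 level was not called (log2 change 0.11, edgeR adjusted p = 0.30). Of the genes that mark tissues, the 3 green shoot genes summed to 32698 to 36171 CPM (counts scaled to library size) in prmt5 and to 35578 to 41404 CPM in WT. The 4 root genes summed to 84.3 to 125.6 CPM in prmt5 and 112.8 to 134.8 CPM in WT, and the 4 flower organ genes to 0.41 to 0.59 CPM in prmt5 and 0.60 to 1.02 CPM in WT. STM was at 1.65 to 1.98 CPM in prmt5 and 1.02 to 1.78 CPM in WT, and the other shoot meristem markers, CLV3 and WUS, had 0 counts in every library. The part of tissue make-up in the results was not tested, and in whole plants fewer cells of a type and less RNA per cell cannot be told apart. The labels do not say whether the libraries of a group came from separate cultures, so p-values measure only the spread between these libraries.

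Levels of FLC, MAF5 and FLM were higher in prmt5, and the levels of MAF2, MAF3, MAF4 and SVP were not called. Thus 3 of the 7 genes passed edgeR's quasi-likelihood test at an adjusted p under 0.05, all 3 in the higher direction. Over all 22509 genes tested, 33.3% passed, 17.9% higher in prmt5 and 15.4% lower, so this share is of the same order as that of all genes. The median log2 change of the 7 genes was 0.11, beside 0.01 over all genes tested.

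FLC, the central repressor that vernalization silences, had 97, 56 and 136 counts in the prmt5 libraries, against 51, 18 and 50 counts in WT. Scaled to library size, this was 1.81, 1.34 and 1.97 CPM in prmt5 and 0.77, 0.46 and 0.69 CPM in WT. Every prmt5 library lay above every WT library. FLC rose 2.63-fold (log2 change 1.40, SE 0.26, edgeR adjusted p = 0.0022), and the adjusted p stayed between 5.0e-05 and 0.013 over 13 other ways of fitting the data. All 6 FLC junctions in the table are annotated, and together they held 222 counts in prmt5 and 86 in WT. The junction that removes the long first intron had 14, 8 and 27 counts in prmt5, against 6, 2 and 3 in WT. RefSeq places a long noncoding RNA gene (AT5G01675) across FLC on the other strand. No source says that strand was used in counting, so reads of this RNA and of FLC exons cannot be told apart.

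MAF5, the last of the MAF genes along chromosome 5, had the lowest mean level per length in both genotypes. It had 74, 39 and 70 counts in prmt5, against 20, 18 and 22 in WT. The lowest prmt5 library, replicate 2, had 0.94 CPM and the highest WT library, also replicate 2, had 0.46 CPM, so the groups did not overlap. MAF5 rose 3.21-fold (log2 change 1.68, SE 0.30, edgeR adjusted p = 0.0018), on 60 counts over the WT libraries together.

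FLM, the partner of SVP at moderate temperatures, was expressed far above FLC and rose by a smaller factor. It had 47.8, 45.4 and 44.5 CPM in prmt5, against 31.1, 35.3 and 34.7 CPM in WT. The groups did not overlap, and FLM rose 1.36-fold (log2 change 0.45, SE 0.07, edgeR adjusted p = 5.2e-04). This is the sum of all FLM splice forms over their exons.

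SVP, the temperature-linked repressor that pairs with FLC and with FLM-β, had 69.9, 75.0 and 70.6 CPM in prmt5, against 74.5, 70.0 and 76.4 CPM in WT. The groups overlapped (log2 change -0.04, SE 0.06, edgeR adjusted p = 0.69). MAF2, which holds back flowering after short cold spells, had 39.4, 34.8 and 34.3 CPM in prmt5, against 33.3, 44.9 and 36.9 CPM in WT. Its groups overlapped as well (log2 change -0.08, SE 0.11, edgeR adjusted p = 0.60). MAF3 had 12.1 ± 1.34 CPM in prmt5 and 11.2 ± 1.21 CPM in WT (SD, n = 3 each; log2 change 0.11, edgeR adjusted p = 0.46). MAF4 had 1.39 ± 0.08 CPM in prmt5 and 1.45 ± 0.19 CPM in WT (SD, n = 3 each; log2 change -0.05, edgeR adjusted p = 0.86). MAF2, MAF3, MAF4 and MAF5 lie side by side on chromosome 5, and of these neighbours only MAF5 was called.

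**Figure D1:**
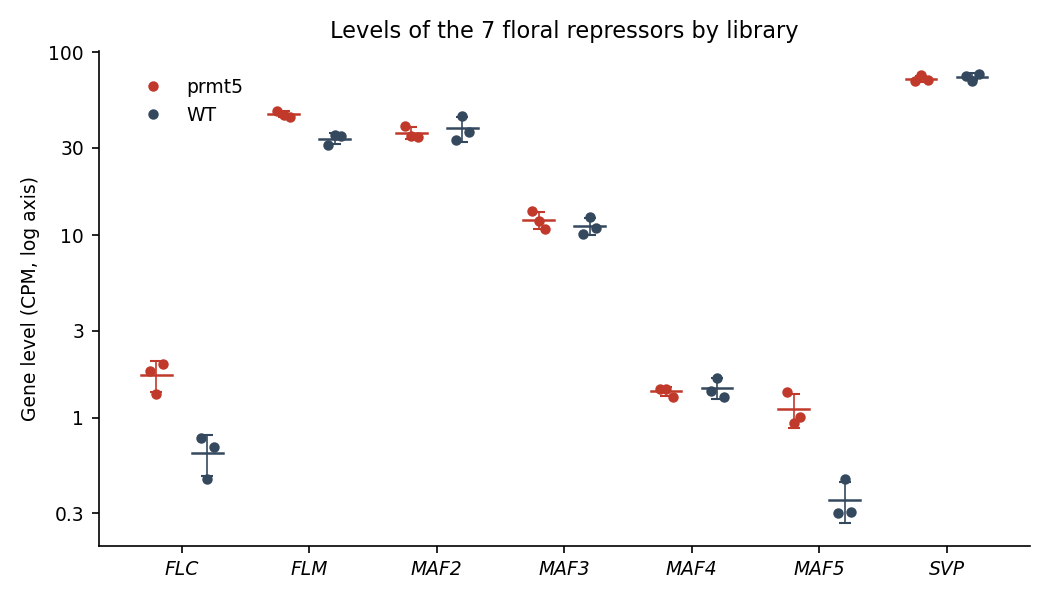
Gene level of the 7 repressors in CPM on a log axis, with 1 point per library, prmt5 (red) to the left of WT (dark blue) for each gene; horizontal lines are means and bars SD (n = 3). The prmt5 points of FLC, FLM and MAF5 lie above all WT points, and the points of the other genes overlap.

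Levels between genes were compared per length, as RPKM, the CPM divided by the summed exon length of the gene in kilobases. In prmt5 the order was SVP (46.2 ± 1.79 RPKM), FLM (40.1 ± 1.5), MAF2 (30.3 ± 2.36), MAF3 (12.9 ± 1.43), FLC (1.6 ± 0.31), MAF4 (1.26 ± 0.07) and MAF5 (1.03 ± 0.22). In WT it was SVP (47.3 ± 2.1 RPKM), MAF2 (32.1 ± 4.99), FLM (29.5 ± 2.00), MAF3 (12.0 ± 1.28), MAF4 (1.32 ± 0.17), FLC (0.60 ± 0.15) and MAF5 (0.33 ± 0.08). These are means ± SD of 3 libraries each. The ranges of FLC, MAF4 and MAF5 all overlapped one another in prmt5, and those of MAF2 and FLM overlapped in WT. The order within these sets is therefore not resolved. FLM made up 29.8 to 30.3% of the summed RPKM of the 7 genes in the prmt5 libraries and 23.4 to 24.4% in the WT libraries. FLC made up 0.95 to 1.44% in prmt5 and 0.33 to 0.62% in WT.

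FLM exon 3 was nearly absent from spliced FLM reads in prmt5. Usage of junctions was tested within groups that share a donor or an acceptor, which left 25 of the 98 junctions of the 7 genes. Of these 25, 3 were called and all 3 belong to FLM, 1 raised and 2 lowered. All 3 concern the choice between exon 2 and exon 3 of FLM, so they are not separate results. Over the 8106 junctions tested in all genes, 5.9% were called, 3.21% raised and 2.69% lowered. The junctions of FLC, MAF4 and MAF5 had no tested alternative.

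The junction that joins exon 1 to exon 3 had 1, 4 and 6 counts in prmt5, against 45, 17 and 57 counts in WT. The junction that joins exon 3 to exon 4 had 11, 2 and 11 counts in prmt5, against 65, 46 and 91 in WT. In both cases every prmt5 library was below every WT library. The exon 1 to exon 3 junction fell by 3.44 on the log2 scale relative to all tested junctions at its donor, itself included (SE 0.42, edgeR adjusted p = 1.8e-07). The exon 3 to exon 4 junction fell by 3.04 (SE 0.31, edgeR adjusted p = 3.4e-09). Both calls held in every alternative fit, with adjusted p of at most 4.2e-04.

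As a share, exon 3 took 0.36, 1.73 and 1.78% of the junction counts leaving exon 1 in prmt5, against 17.3, 9.29 and 15.7% in WT. For the single libraries, exact Clopper-Pearson 95% intervals reached at most 4.37% in prmt5 (replicate 2) and began at 5.51% or above in WT (lowest in replicate 2). At the acceptor of exon 4, exon 3 took 6.47, 1.35 and 4.40% in prmt5, against 34.4, 36.5 and 33.3% in WT. The shares did not overlap at either site, and in a two-sided exact permutation test each difference had p = 0.1, the smallest that 3 libraries against 3 can give. The mean difference, prmt5 minus WT, was -12.8 percentage points at exon 1 and -30.7 points at exon 4. The sites did not give the same share, since the WT mean was 14.1% at exon 1 and 34.7% at exon 4. In the WT libraries together, the exon 1 to exon 3 junction had 119 counts and the exon 3 to exon 4 junction 202. Reads joining exon 3 to exon 4 need not come from transcripts that join exon 1 to exon 3. The share at exon 4 is therefore not a share of FLM-δ, and the source of the mismatch was not tested.

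Exon 2 carried most of the other junction counts at both sites, 97.4 to 99.6% in prmt5 and 81.5 to 87.98% in WT at exon 1, and 93.5 to 97.97% in prmt5 and 61.9 to 64.1% in WT at exon 4. Its junction with exon 1 had 277, 225 and 330 counts in prmt5, against 212, 161 and 303 in WT, and was not called in usage (log2 change 0.21, edgeR adjusted p = 0.79). Among the tested junctions at exon 1 its mean share was 98.7% in prmt5 and 85.7% in WT, the reverse of the called exon 3 fall. Usage is measured against these junctions together, so a junction that holds most of their counts moves little. The junction of exon 2 with exon 4 had 159, 145 and 239 counts in prmt5, against 121, 78 and 175 in WT. The usage of that junction rose (log2 change 0.57, SE 0.16, edgeR adjusted p = 0.027), although the call was lost when any library except WT replicate 2 was left out (adjusted p of 0.052 to 0.11). Scaled to all junction counts of a library, the exon 1 to exon 2 junction was at 15.7 ± 0.92 CPM in prmt5 and 11.4 ± 1.89 CPM in WT (SD, n = 3 each). The exon 2 to exon 4 junction was at 10.1 ± 0.67 CPM in prmt5 and 6.15 ± 0.87 CPM in WT on the same scale. The table held no junction from exon 2 to exon 3.

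Reads over the body of exon 3 did not fall in step with its junctions. Its exon bin had 146, 123 and 158 counts in prmt5, against 170, 112 and 204 in WT, and its usage was not called (log2 change -0.51, unadjusted p = 0.0013, edgeR adjusted p = 0.37). The junction counts on both sides of exon 3 amounted to 8.22, 4.88 and 10.8% of the bin count in prmt5, against 64.7, 56.3 and 72.5% in WT. For exon 2 the same measure was 100.1 ± 1.46% in prmt5 and 102.5 ± 2.31% in WT (SD, n = 3 each). The exon 3 measure did not overlap between the genotypes (two-sided exact permutation p = 0.1, the smallest possible), and that of exon 2 did (p = 0.2).

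**Figure D2:**
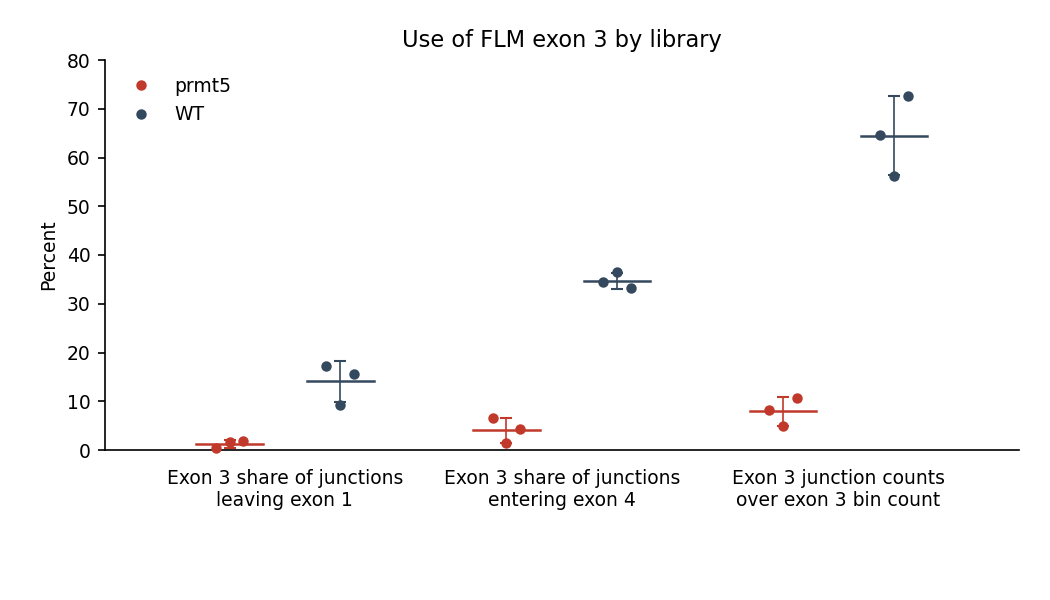
Use of FLM exon 3 in percent, 1 point per library, prmt5 (red) left of WT (dark blue), with mean lines and SD bars (n = 3). Left and middle are the shares of junction counts at exon 1 and at exon 4 that involve exon 3, and right is the sum of the exon 3 junction counts over the exon 3 bin count; the prmt5 points lie below all WT points in each.

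Intron reads were higher in prmt5 in FLM, MAF2, MAF3 and, at 1 intron, SVP. Each intron count was tested against the count of its own gene in the same library, so a change means more or fewer intron reads per exon read. The 7 genes have 49 intron rows, of which 27 had enough counts. Of these, 9 were raised and 0 lowered by edgeR at an adjusted p under 0.05 (10 of the 27 had an unadjusted p under 0.05). Over the 53291 introns tested in all genes, 22.2% were called, 21.6% raised and 0.518% lowered. The median change of all introns was 0.37 on the log2 scale, so a value near 0.37 is the typical one in this mutant, and the median over the 27 was 0.33. With this median removed, 6 introns of the 7 genes were raised and 4 lowered, and with library size in place of the gene count 5 were raised and 1 lowered. Raised introns made up 97.7% of the calls over all genes, 77.9% with the median removed and 66.4% with library size.

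FLM intron 1 (chr1:28955864-28958333) had 318, 333 and 393 counts in prmt5, against 104, 57 and 127 in WT. This was 12.4, 17.6 and 12.8% of the FLM gene count in prmt5 and 5.04, 4.12 and 5.05% in WT, with no overlap. It rose by 1.57 on the log2 scale (SE 0.15, edgeR adjusted p = 5.3e-11). The table also holds an exon bin of FLM inside the 3′ end of this intron (chr1:28958311-28958333), which had 12, 18 and 21 counts in prmt5, against 8, 3 and 9 in WT.

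The intron after exon 3 (chr1:28958502-28958601) had 209, 160 and 237 counts in prmt5, against 73, 45 and 75 in WT, and rose by 1.32 (SE 0.16, edgeR adjusted p = 1.5e-08). The lowest prmt5 library was above the highest WT library. The short intron between exon 2 and exon 3 (chr1:28958392-28958455) behaved differently. It held 5.24 ± 0.30% of the gene count in prmt5 and 5.0 ± 0.51% in WT (SD, n = 3 each; log2 change 0.07, edgeR adjusted p = 0.83). The 5 remaining FLM introns, all 3′ of exon 4, were not called. With the median removed, 3 of these were lowered, at chr1:28958664-28958744, chr1:28958995-28959329 and chr1:28959628-28959743.

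MAF2 intron 1 (chr5:25982600-25984680) had 230, 170 and 194 counts in prmt5, against 64, 35 and 53 in WT. It rose by 2.15 on the log2 scale (SE 0.18, edgeR adjusted p = 1.2e-12), and the counts did not overlap. MAF3 intron 1 (chr5:25987712-25989670) had 116, 92 and 140 counts in prmt5, against 26, 16 and 28 in WT. It rose by 2.31 (SE 0.21, edgeR adjusted p = 1.2e-11), the highest value among the 27 introns. The first introns of FLM, MAF2 and MAF3 thus stood at 14.3 ± 2.87, 10.3 ± 1.83 and 17.8 ± 1.49% of their gene counts in prmt5, against 4.74 ± 0.54, 2.29 ± 0.53 and 3.54 ± 0.30% in WT (SD, n = 3 each). These calls held under all 12 alternative fits. Shares of the gene count, here and below, are not scaled to intron length, so they do not rank introns of unlike length by retention. Per kilobase, MAF2 intron 1 had 285 counts over the prmt5 libraries together and 73.0 over the WT libraries. The much shorter MAF2 intron 3 had 7140 in prmt5 and 9093 in WT on the same scale.

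The second introns of MAF2 and MAF3 rose too. MAF2 intron 2 (chr5:25984739-25984940) had 62, 30 and 73 counts in prmt5, against 17, 23 and 44 in WT. Its counts overlapped, but as a share of the gene count it was at 2.70 ± 0.55% in prmt5 and 1.24 ± 0.44% in WT without overlap (log2 change 1.12, SE 0.26, edgeR adjusted p = 8.5e-04). It was not called with library size in place of the gene count (log2 change 0.59, adjusted p = 0.126). MAF3 intron 2 (chr5:25989729-25989941) had 25, 9 and 25 counts in prmt5, against 5, 4 and 8 in WT, and rose by 1.75 (SE 0.43, edgeR adjusted p = 0.0018). In both genes the third intron was not called. MAF2 intron 3 (chr5:25985003-25985088), the one known for retention, held 10.3 ± 1.08% of the gene count in prmt5 and 11.9 ± 1.31% in WT (SD, n = 3 each; log2 change -0.20, edgeR adjusted p = 0.32). It was lowered with the median removed (log2 change -0.58) and with library size in place of the gene count (-0.75).

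Both of the last MAF2 introns tested were raised as well. The fifth (chr5:25985345-25985653) had 71, 56 and 58 counts in prmt5, against 38, 38 and 42 in WT (log2 change 0.82, SE 0.23, edgeR adjusted p = 0.0055). Its call was lost without prmt5 replicate 2 (adjusted p = 0.0503). The sixth (chr5:25985696-25986012) had 54, 27 and 46 counts in prmt5, against 24, 17 and 25 in WT (log2 change 1.10, SE 0.27, edgeR adjusted p = 0.0016). An exon bin at chr5:25985696-25985925, the end of a shorter annotated transcript, overlaps it and had 39, 21 and 37 counts in prmt5 and 16, 13 and 17 in WT (log2 change 1.23, edgeR adjusted p = 0.17). Neither intron was called with the median removed or with library size.

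SVP had 8 tested introns and 1 call. The intron at chr2:9582151-9582235 had 40, 38 and 62 counts in prmt5, against 17, 8 and 50 in WT. Relative to the gene it was at 1.07, 1.21 and 1.27% in prmt5 and 0.34, 0.29 and 0.90% in WT, with WT replicate 3 close to the prmt5 libraries. It rose by 1.10 (SE 0.29, edgeR adjusted p = 0.0037), and was not called with the median removed or with library size (adjusted p of 0.083 and 0.18). Without WT replicate 3 the log2 change was 1.87. The first SVP intron (chr2:9580599-9581505), shorter than the first introns of the other genes, was not called (log2 change 0.34, edgeR adjusted p = 0.30). Over the 18 introns not called, log2 changes ran from -0.71 to 0.65.

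**Figure D3:**
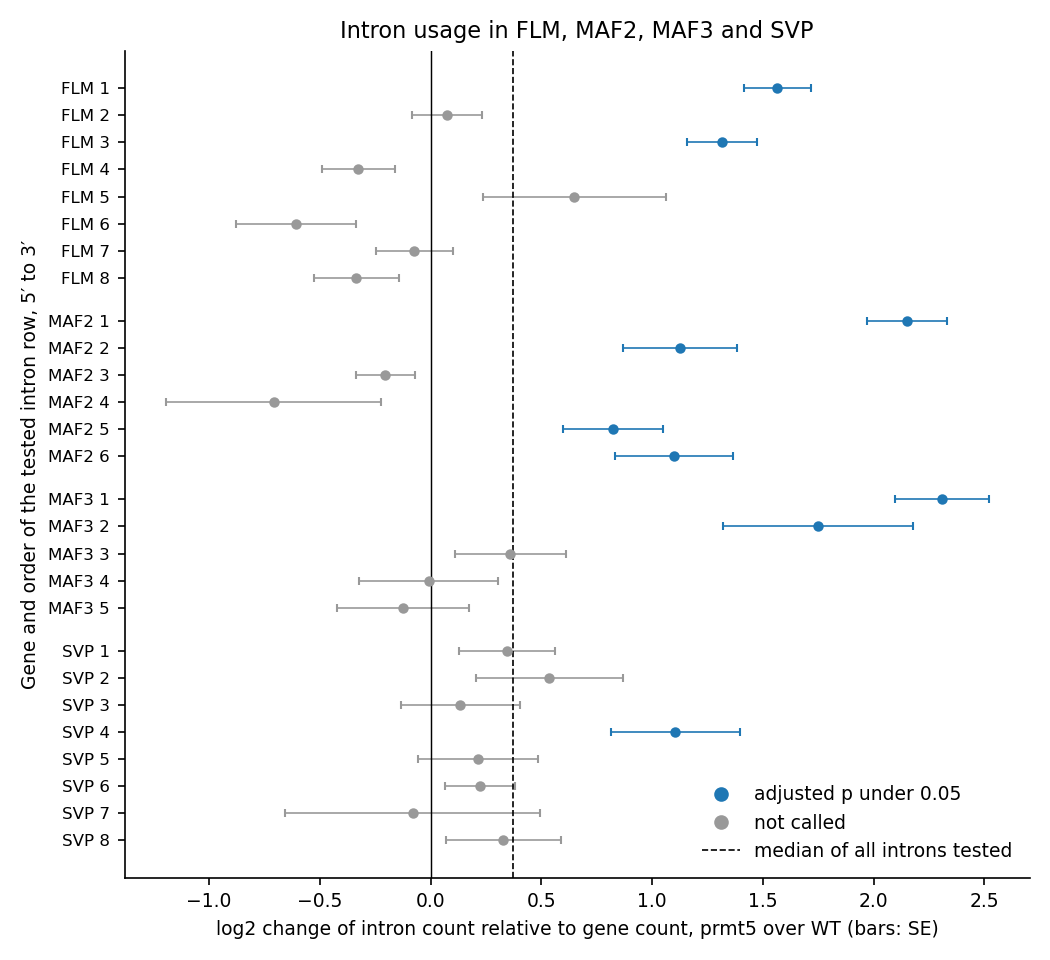
The log2 change of intron count relative to gene count, prmt5 over WT, for the 27 tested intron rows of FLM, MAF2, MAF3 and SVP, numbered 5′ to 3′ among the tested rows; bars are SE, blue points passed an adjusted p under 0.05 and the dashed line is the median of all introns tested. The first introns of FLM, MAF2 and MAF3 lie at 1.57, 2.15 and 2.31, and the introns that were not called lie between -0.71 and 0.65.

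FLC, MAF4 and MAF5 had too few intron counts for the test. The long FLC intron 1 (chr5:3175662-3179154) had 0, 1 and 0 counts in prmt5 and 4, 0 and 0 in WT, so the FLC rise lay in exon and junction reads. MAF5 intron 1 (chr5:25997856-26000266) had 6, 0 and 8 counts in prmt5 and 0 in each WT library. Over all its introns, MAF4 had 31, 18 and 36 counts in prmt5, against 18, 9 and 12 in WT, which was 36.8 ± 5.85% of the gene count in prmt5 and 15.3 ± 3.53% in WT (SD, n = 3 each). This MAF4 share did not overlap between the genotypes, and no test of it was run. The same summed share was 40.6 ± 3.43% in prmt5 and 28.4 ± 1.22% in WT for FLM. It was 28.9 ± 2.88% in prmt5 and 18.8 ± 1.69% in WT for MAF2, and 35.8 ± 0.88% in prmt5 and 18.0 ± 1.49% in WT for MAF3. SVP was at 9.77 ± 0.95% in prmt5 and 7.67 ± 0.12% in WT, without overlap. The groups overlapped for FLC (4.44 ± 3.12% in prmt5 and 2.61 ± 4.53% in WT) and for MAF5, whose mean was lower in prmt5 (12.7 ± 3.13%) than in WT (16.5 ± 6.37%; SD, n = 3 each). No summed share was taken over all genes. The shares are to be read beside the median change of all introns tested, 0.37 on the log2 scale, so a rise alone does not set these genes apart.

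Donor sites were scored over the last 3 exon and first 6 intron bases, with weights taken from 50683 of the tested introns, those that coincide with an annotated junction of known strand. The donor after exon 2 is the same 9 bases, ttaGTaagt, in FLM, MAF2 and MAF3, where capitals mark the first pair of intron bases. It scored 3.69, and 8.63% of the scored introns had a lower score. The intron after this donor was raised in MAF2 and MAF3. In FLM all junction counts at this donor ran to exon 4, and the intron row up to exon 3, which is only part of that intron, was not called. The exons in front of it are close copies, since MAF3 exon 2 matched FLM exon 2 at 93.1% and MAF2 exon 2 at 89.7% of 58 bases, against 77.6% for FLC and MAF4 and 75.9% for MAF5.

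The donor of FLM exon 3, ctcGTaaca, scored 2.16, with 3.08% of introns below it, and its intron was raised. The first-intron donors scored 4.66 for FLM (cgaGTaaga, 15.4% below) and 6.93 for MAF2 and MAF3 (caaGTaagc, 47.3% below). The donor of the third intron of MAF2 and MAF3, aagGTtagc, is shared with the FLM intron after exon 4 and scored 8.51, with 79.9% of introns below it. None of these 3 introns was raised. The raised SVP intron had the donor aagGTtgtt, which scored 4.88 with 17.4% below, the lowest score of the 8 SVP introns. Raised introns did not all have low scores, since the fifth MAF2 intron (acgGTtagt) scored 7.73 with 62.6% below and the sixth (cagGTgaca) 7.0 with 49.3% below. The last MAF3 intron has the same donor as the sixth of MAF2 and was not called (log2 change -0.12). These scores describe the sequences, and their part in the changes was not tested.

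Exon bins showed no called change. The 7 genes have 72 exon bins, 63 of which were tested, and 0 were called by edgeR, or by its diffSpliceDGE test; 7 had an unadjusted p under 0.05. Over the 129447 bins tested in all genes 0.121% were called, 0.0749% raised and 0.0456% lowered. Of the 7 bins, 4 belong to FLM, 2 to MAF2 and 1 to MAF3, and the tested bins ran from -0.92 to 1.39 on the log2 scale.

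Apart from FLM, no junction choice was called. MAF2 transcripts that skip exon 2 (a junction from 25982599 to 25984941 that the table does not annotate) had 6, 7 and 4 counts in prmt5, against 19, 17 and 13 in WT. All prmt5 libraries were lower, but the test was not passed (log2 change -1.34, edgeR adjusted p = 0.10). Set against the mean of the 2 inclusion junctions, skipping took 2.56 ± 1.33% in prmt5 and 6.24 ± 1.97% in WT (SD, n = 3 each). In MAF3 the same kind of skipping was common in both genotypes, at 44.4 ± 7.93% in prmt5 and 46.3 ± 6.64% in WT (SD, n = 3 each). A second MAF3 junction outside the annotation, from 25990183 to 25990288, had 11, 11 and 16 counts in prmt5, against 9, 3 and 3 in WT (log2 change 1.34, edgeR adjusted p = 0.13). Junctions outside the annotation held 2.17% of the junction counts of the 7 genes in prmt5 and 2.6% in WT, and MAF3 had the highest share, 17.7% in prmt5 and 16.8% in WT.

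Among known regulators of these repressors, part of the chromatin factors and FLK were higher in prmt5, and no gene of the FRIGIDA complex was called. Each list is to be read beside the 17.9% higher and 15.4% lower over all genes tested. In the FRIGIDA complex, which recruits activators to FLC, 0 of 7 genes passed edgeR's test, and their median log2 change was -0.05. Of the 12 activating chromatin factors, 6 rose and 1 fell. ATX1, a histone H3 lysine methyltransferase, rose by 0.36 (edgeR adjusted p = 0.0069). HUB1, a histone H2B ubiquitin ligase, rose by 0.31 (adjusted p = 0.0053), and VIP5, of the Paf1 complex, by 0.28 (adjusted p = 0.0059). ARP6, a subunit of the SWR1 complex that places the histone variant H2A.Z, fell by 0.46 (adjusted p = 4.5e-04). ARP6 overlaps another gene, so its value is uncertain.

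Of the 8 autonomous pathway genes, which lower FLC, 2 rose and 1 fell. FLK, an RNA-binding protein with KH domains, had 97.3 ± 2.08 CPM in prmt5 and 46.3 ± 1.07 CPM in WT (SD, n = 3 each; log2 change 1.07, edgeR adjusted p = 5.4e-07). FVE, a WD-repeat protein, rose by 0.20 (adjusted p = 0.022), and FPA, an RNA-binding protein that acts on 3′ ends, fell by 0.21 (adjusted p = 0.038). The calls of FVE and FPA were each lost in 4 of the 6 fits that left out a library, those without WT replicate 1 or 3 or without prmt5 replicate 1 or 3. FPA also overlaps another gene.

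Of the 11 Polycomb and vernalization genes, which silence FLC, 5 rose and 0 fell. SWN, a histone methyltransferase of Polycomb repressive complexes, had 90.5 ± 1.32 CPM in prmt5 and 46.4 ± 1.39 CPM in WT (SD, n = 3 each; log2 change 0.96, edgeR adjusted p = 1.1e-06). EMF2, a further subunit of such a complex, rose by 0.53 (adjusted p = 6.7e-05). MSI1, a WD-repeat subunit that overlaps another gene, rose by 0.26 (adjusted p = 0.0055). The other two, CLF and VRN2, were named after their values were seen and rose by 0.26 and 0.21 (adjusted p = 0.0089 and 0.0435). The adjusted p of VRN2 reached 0.163 over the alternative fits, past the threshold. VIN3, which cold induces, was at 0.28 ± 0.07 CPM in prmt5 and 0.25 ± 0.06 CPM in WT (SD, n = 3 each). It overlaps another gene and had only 11 to 23 counts per library, so its value is uncertain. The changes of these regulators are in gene counts summed over all splice forms, and the splicing of the regulators was not examined here. Gains in genes that lower FLC thus stood beside a higher FLC level, and their relation to it was not tested.

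The integrators that the repressors act on were lower. Of 11 targets and partners, 9 were tested, 4 fell and 1 rose. FT, the mobile flowering signal, had 1.21, 0.98 and 1.10 CPM in prmt5, against 2.47, 3.29 and 2.23 CPM in WT, with no overlap (log2 change -1.26, SE 0.21, edgeR adjusted p = 9.3e-04). SOC1, a MADS-box integrator, had 18.9 ± 2.00 CPM in prmt5 and 35.4 ± 2.32 CPM in WT (SD, n = 3 each; log2 change -0.90, edgeR adjusted p = 2.2e-05). AGL24, a promoter of flowering closely related to SVP, fell by 0.94 (adjusted p = 1.1e-05).

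TSF, the close relative of FT, was named after its value was seen and fell by 1.69 (edgeR adjusted p = 0.0029). It had only 16, 10 and 13 counts in prmt5, against 46, 37 and 52 in WT, so the size of its fall is uncertain. FD, the bZIP partner of FT, rose by 0.36 (adjusted p = 0.038), but its call was lost in 8 of 10 alternative fits, all of them except 1 scaling method and the fit without WT replicate 2. LFY and AP1 did not pass the filter, at 0.06 ± 0.05 and 0.03 ± 0.02 CPM in prmt5, against 0.18 ± 0.04 and 0.17 ± 0.04 CPM in WT (SD, n = 3 each). FUL, SEP3, TEM1 and TEM2, other regulators of the floral transition, were not called. TEM1 and TEM2, which also repress FT, differed by -0.01 and -0.07 on the log2 scale. Over the 5 lists, 14 of 47 tested genes were higher and 6 lower, beside 33.3% called in either direction over all genes.

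**Figure D4:**
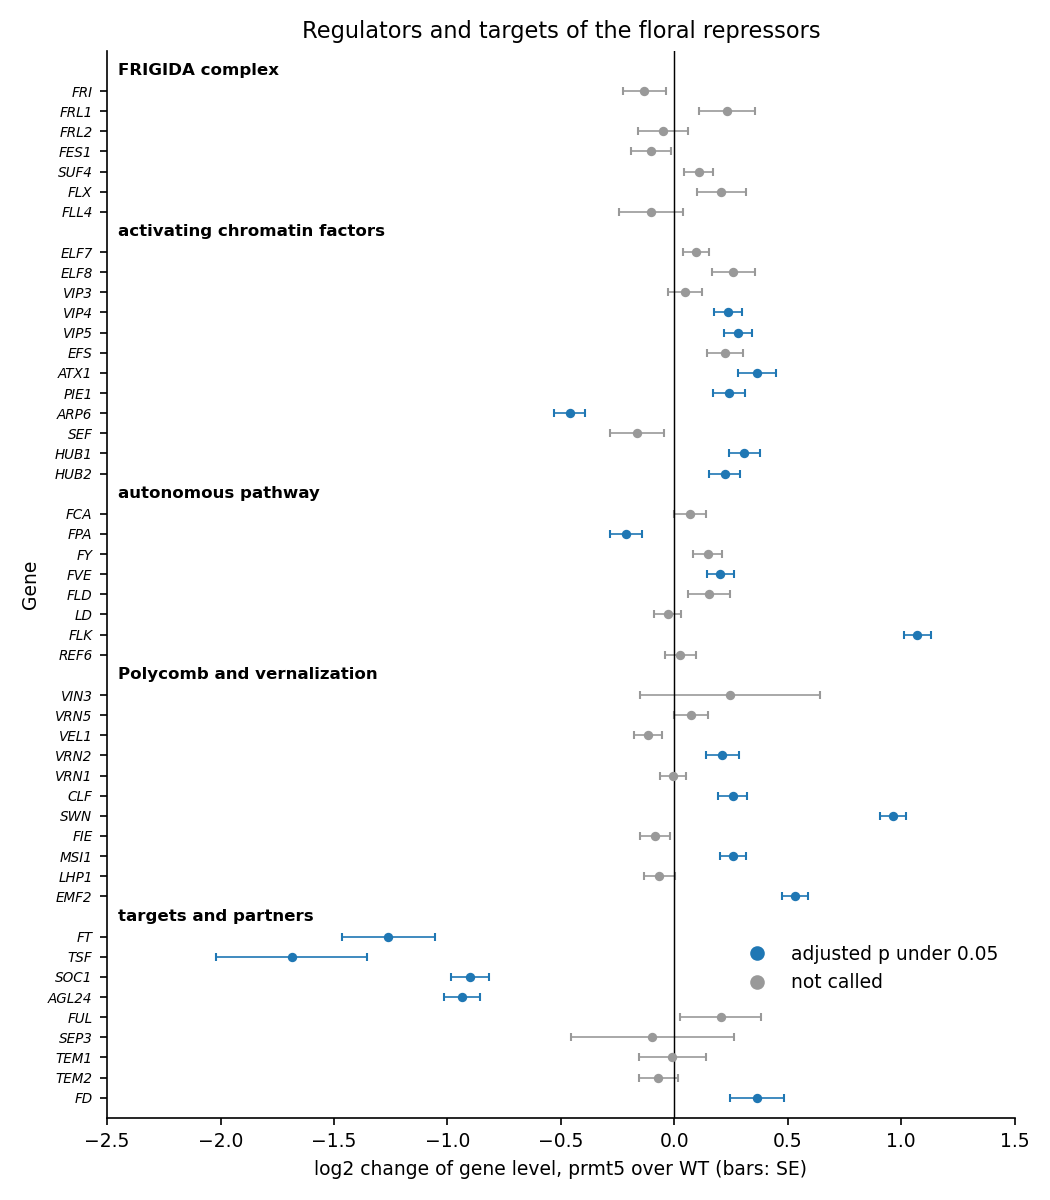
The log2 change of gene level, prmt5 over WT, for the 47 tested genes of 5 lists of regulators and targets, with SE bars; blue points passed an adjusted p under 0.05. FLK and SWN stand at 1.07 and 0.96, the FRIGIDA complex lies around 0, and FT, TSF, SOC1 and AGL24 lie between -0.90 and -1.69.

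Across the 6 libraries, the genes whose log2 CPM followed that of FLC most closely were AT1G50950, AT4G33980 and AT4G17940 (Pearson r of 0.997 to 0.998). For FLM they were AT3G27470, AT3G55520 and AGL19 (r of 0.998 each), and AGL19, a MADS-box gene known as a promoter of flowering, had 6.91 CPM in prmt5 and 3.04 CPM in WT on average. For SVP they were APL1, ADG1 and AT1G78915 (r of 0.990 to 0.997). APL1 and ADG1 encode subunits of the starch enzyme ADP-glucose pyrophosphorylase. These values describe 6 libraries that fall into 2 genotypes, and for FLC and FLM the likeness follows the genotype difference. SVP differed by only -0.04 on the log2 scale between genotypes, so its likeness follows small differences between single libraries. All of these genes were picked as the highest r among all genes tested, and no shared function was tested.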

How the data were processed

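RNA-seq counts from 3 prmt5 and 3 WT libraries were used as the authors deposited them. The deposited tables hold raw counts per gene, exon bin, intron and splice junction (33602 genes, 158089 exon bins, 123235 intron rows used and 186694 junctions). Another 5547 intron rows, marked as original introns, were left out because they overlap other bins. Some of the intron rows used still overlap exon bins. Reads were aligned with STAR to TAIR10, per the submitters' processing notes. No label names the counting program or its strand setting. Gene counts from 1 to 20 were even in 75.0 to 77.0% of cases, so the mates of a pair seem to have been counted separately. Intervals cover counting error only and are then too narrow. Plants moved to 10 °C were not analysed here.

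The 7 genes, the 5 lists and the tests were chosen with earlier results of these data known. Named list genes are at most 3 per direction with the smallest p past the threshold, with exceptions stated. Coordinates were checked against RefSeq TAIR10.1, where GT and AG bounded 98.5% of the 110931 annotated junctions of the nuclear chromosomes, against 0% after a shift of 1 base. For FLM and MAF3, 1.90 and 1.97% of the 50-base exon stretches occur elsewhere in the genome, and for the other members 0%.

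All fits ran over whole tables in edgeR 4.0.16 (R 4.3.3): TMM scaling, the default expression filter, robust quasi-likelihood F tests, two-sided, genotype as the only term, and Benjamini-Hochberg adjustment with a threshold of 0.05. CPM use TMM library sizes, and RPKM divide them by exon length. Introns and exon bins had the log of the gene count plus 0.5 as offset, and junctions were tested with diffSpliceDGE. Features needed a mean of 5 counts, and the genes of tested introns a mean of 50. SE is the log2 change over the square root of F. Alternatives used DESeq2 1.42.0, limma 3.58.1, other scalings, filters and offsets, a replicate block, and leaving out each library. The tests were tried on simulated counts first. Chi-square per degree of freedom between libraries of a group was 12.7 to 31.9, so none was a repeat of another. Python 3.11.15, numpy 2.4.6, pandas 2.3.3, scipy 1.17.1 and matplotlib 3.10.9 were used.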

Additional observations from a re-analysis of the deposited data

How the results depend on the processing

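The calls of FLC, MAF5 and FLM as higher and the absence of calls for the other genes held in all 13 alternatives, including each library left out (3 calls in every one). Member introns called numbered 8 to 9 with a library left out, 6 with library size as offset and 10 with the median change removed. Junction calls numbered 2 to 3 with a library left out, and regulators and targets called 16 to 18, against 20. Exon bins called numbered 0 in all alternatives except library size as offset, which gave 15, all raised: 6 in FLM, 5 in MAF5, 3 in FLC and 1 in MAF2. With that offset a change of the gene itself enters the bin. Among the results recomputed, which include 3 of the 18 introns not called, signs turned for these values, none of them called: without WT replicate 2 the log2 change was 0.033 for MAF2 and 0.033 for MAF4 (MAF4 ran from -0.13 to 0.033 over the libraries left out), FLM intron 2 in the order tested was at -0.30 with the median removed, and the first SVP intron at -0.17 with library size and -0.027 with the median removed. The replicate numbers did not pair the libraries (correlations of same-numbered libraries of -0.11, -0.14 and -0.06). Differently numbered libraries ran from -0.11 (prmt5 replicate 1 with WT replicate 3) to 0.18 (prmt5 replicate 1 with WT replicate 2). The next highest were 0.175 (prmt5 replicate 2 with WT replicate 3) and 0.12 (prmt5 replicate 3 with WT replicate 1). With the highest, these match each prmt5 library to a different WT library. No block on that or another pairing was fitted, so a shared batch of this kind was not tested. A replicate block left 3 gene, 9 intron and 0 exon bin calls, 2 junction calls (the exon 2 to exon 4 junction of FLM had adjusted p = 0.077) and 14 of the regulators and targets. FLC, MAF4 and MAF5 introns were limited by depth.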
